A study of Homo sapiens with 8 samples.

Results

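The regions described here carried dimethylated lysine 36 of histone H3 (H3K36me2) in both KDM2A hairpin libraries without being called in the control library. They were the H3K36me2 regions of the sh1 library on chromosomes 1 to 22 that shared at least 1 bp with a region of the sh4 library and none with a region of the control library. Chromosome 1 from 140 Mb on was left out. This gave 2491 of 18210 sh1 regions, and the 3 lists together held 60685 regions. The calls of these 3 libraries chose the regions, so their number and their fold in either hairpin are descriptions without a test.

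The cells were neural progenitors derived from H9, a widely used line of human embryonic stem cells. Infection with lentivirus and selection with puromycin were done at the stem cell stage, before differentiation. The sh1 and sh4 lentiviruses each carried 1 hairpin RNA against KDM2A, and the third group, NC, served as their control. H3K36me2 was precipitated once from sh1, once from sh4 and once from NC cells, and KDM2A was precipitated once from NC cells, each with its own input. Each group was thus 1 infected culture measured as 1 library, with no replicate, so no difference between libraries could be set against a spread and no test was possible. No RNA was measured in these libraries, so neither the loss of KDM2A nor the progenitor identity could be checked against expression. The 2 hairpin libraries share 1 control, and every pair of libraries compared below shares a library with every other pair.

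KDM2A is a demethylase that removes methyl groups from H3K36me2, and its zinc finger recognises DNA rich in unmethylated CpG. H3K36me2 itself is written mainly by the NSD family of methyltransferases and usually forms broad domains over genes and the DNA between them. The series asks what lower KDM2A does to H3K36me2 in neural progenitors. Regions present with both hairpins and absent from the control are those where a gain of the mark would be looked for.

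Of the 2491 regions, 20 held an annotated transcription start of a protein-coding gene, 21 starts in all, since 1 region held the diverging starts of NMBR and VTA1. Such starts are where KDM2A's preference for CpG can be read from the sequence. The promoter sequences of the 6 widest of these regions are printed below, each 250 bases before to 50 bases after the start, on the gene's strand, from RefSeq for GRCh38.p14. Capitals mark each CG dinucleotide, which reads the same on both strands.
POC5: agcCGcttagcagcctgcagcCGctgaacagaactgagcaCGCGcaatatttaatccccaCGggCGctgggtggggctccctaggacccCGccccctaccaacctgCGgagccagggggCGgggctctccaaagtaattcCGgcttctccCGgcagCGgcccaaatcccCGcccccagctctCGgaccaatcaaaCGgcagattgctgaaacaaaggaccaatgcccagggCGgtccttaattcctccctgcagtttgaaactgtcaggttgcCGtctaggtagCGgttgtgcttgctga 
PDZRN3: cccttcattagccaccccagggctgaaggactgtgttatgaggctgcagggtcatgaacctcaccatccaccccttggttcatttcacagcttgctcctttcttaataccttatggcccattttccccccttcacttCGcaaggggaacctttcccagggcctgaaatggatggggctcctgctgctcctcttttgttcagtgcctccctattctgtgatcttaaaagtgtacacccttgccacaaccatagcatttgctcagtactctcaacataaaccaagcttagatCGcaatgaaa 
FNIP2: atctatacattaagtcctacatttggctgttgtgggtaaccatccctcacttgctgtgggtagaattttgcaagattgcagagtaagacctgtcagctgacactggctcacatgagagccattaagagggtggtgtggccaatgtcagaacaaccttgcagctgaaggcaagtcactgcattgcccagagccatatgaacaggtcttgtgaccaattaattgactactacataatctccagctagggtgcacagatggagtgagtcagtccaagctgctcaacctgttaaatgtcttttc 
ENPP1: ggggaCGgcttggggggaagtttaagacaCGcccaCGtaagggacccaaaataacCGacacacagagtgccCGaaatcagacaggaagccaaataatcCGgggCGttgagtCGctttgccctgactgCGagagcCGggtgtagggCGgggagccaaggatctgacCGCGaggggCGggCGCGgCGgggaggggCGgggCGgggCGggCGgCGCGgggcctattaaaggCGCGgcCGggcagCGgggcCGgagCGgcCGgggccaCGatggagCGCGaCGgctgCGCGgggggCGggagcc 
SPAM1: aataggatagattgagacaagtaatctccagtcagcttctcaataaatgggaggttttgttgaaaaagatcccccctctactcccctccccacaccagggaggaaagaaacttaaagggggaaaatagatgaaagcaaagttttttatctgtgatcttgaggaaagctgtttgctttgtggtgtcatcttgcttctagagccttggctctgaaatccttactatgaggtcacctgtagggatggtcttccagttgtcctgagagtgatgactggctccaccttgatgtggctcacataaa 
TMEM168: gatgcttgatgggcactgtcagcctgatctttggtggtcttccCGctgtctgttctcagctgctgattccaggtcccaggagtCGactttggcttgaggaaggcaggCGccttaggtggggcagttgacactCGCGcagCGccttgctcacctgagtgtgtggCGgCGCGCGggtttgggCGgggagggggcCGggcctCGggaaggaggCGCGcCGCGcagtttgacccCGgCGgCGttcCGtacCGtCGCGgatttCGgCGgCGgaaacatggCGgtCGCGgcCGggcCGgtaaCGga
The POC5 promoter, of a centriole protein, lies at chr5:75717388-75717687 on the minus strand and holds 18 CG. The PDZRN3 promoter, of a ubiquitin ligase, lies at chr3:73474583-73474882 on the minus strand, 150309 bp inside the gene from its outermost 5′ end, and holds 2. The FNIP2 promoter, of a folliculin-interacting protein, lies at chr4:158805589-158805888 on the plus strand, 36813 bp inside the gene, and holds 0. These starts therefore range from a CpG-rich gene end to internal starts almost free of CG. The ENPP1 promoter, of an ectoenzyme that makes pyrophosphate, lies at chr6:131807770-131808069 on the plus strand and holds 37 CG. The SPAM1 promoter, of a sperm hyaluronidase, lies at chr7:123924991-123925290 on the plus strand and holds 0. The TMEM168 promoter, of a transmembrane protein, lies at chr7:112790344-112790643 on the minus strand and holds 33. Only the ENPP1 and TMEM168 sequences of these 6 overlapped a KDM2A peak. Of these 6 starts, only that of SPAM1 also lay inside the sh4 region. The starts of POC5, PDZRN3, FNIP2, ENPP1 and TMEM168 lay in a part of the region called in sh1 but not in sh4.

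Over all 21 starts the median ratio of observed to expected CG was 0.325, against 0.746 over the 20024 promoters of protein-coding genes on the chromosomes used. A ratio of at least 0.6 was found in 6 of the 21 promoters (28.6%), against 63.2% of all promoters. At least 1 CG was present in 19 of the 21 and in 98.1% of all promoters. The starts inside these regions were thus mostly CpG-poor beside all promoters. Starts inside other sh1 or control regions were not compared, so this is not shown to be particular to these regions. A KDM2A peak overlapped 6 of the 21 promoters (28.6%), against 20.9% of all promoters. With 21 promoters, both differences rest on few sequences. Of the 21 starts, 9 lay at the outermost 5′ end of their gene, and 12 also lay inside the sh4 region. Starts were known for 14268 of the 18000 protein-coding genes on the chromosomes used, and those on chromosome 8 were not used here.

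The regions of both hairpins without control made up 13.7% of the sh1 list (exact binomial 95% interval 13.2 to 14.2%). Counted on the sh4 list, they were 2455 of 19069 regions, or 12.9% (12.4 to 13.4%). Control and sh4 shared 1872 of 18309 control regions that were absent from sh1, or 10.2% (9.79 to 10.7%), and 9.76% of the sh4 list. Control and sh1 shared 2216 control regions that were absent from sh4, or 12.1% (11.6 to 12.6%), and 12.2% of the sh1 list. The pair of hairpins therefore shared the most regions of the 3 pairs, but each of the other pairs, made of a hairpin and the control, shared a share of similar size. The count for both hairpins was 1.33 times that for control and sh4 (1.25 to 1.41). These intervals, like all others below, cover counting error only, and neighbouring regions are not independent.

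**Figure D1:**
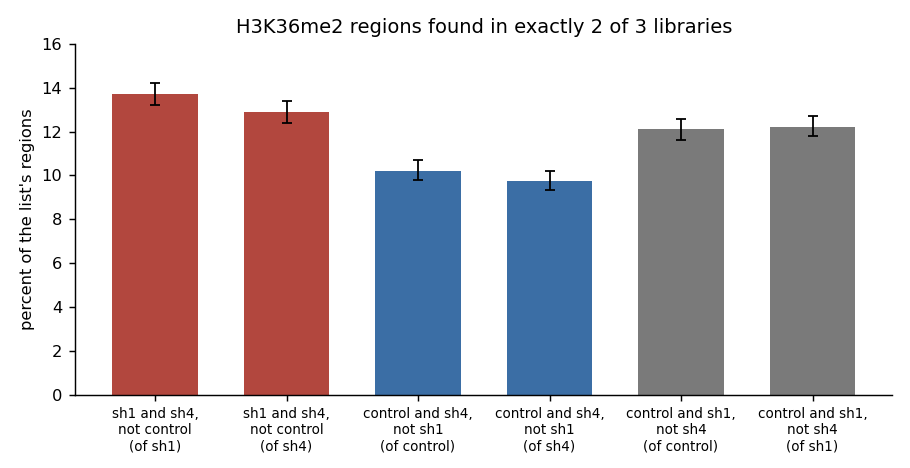
Percent of each H3K36me2 list (y axis) found in exactly 2 of the 3 libraries, counted on either list of the pair (x axis), with exact binomial 95% intervals that cover counting error only. The 2 bars for both hairpins without control stand at 13.7% and 12.9%, those for control and sh4 without sh1 at 10.2% and 9.76%, and those for control and sh1 without sh4 at 12.1% and 12.2%.

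Any 2 libraries overlapped to a small extent. Of the sh1 regions, 3137 (17.2%) overlapped sh4 and 2872 (15.8%) overlapped control. Of the control regions, 2492 (13.6%) overlapped sh4 and 2836 (15.5%) overlapped sh1. Most regions were found in 1 library alone. Of the sh1 regions, 12847 (70.5%) overlapped neither other list, and of the control regions, 13601 (74.3%) overlapped neither hairpin. All 3 lists held 646 sh1 regions (3.55%). The called sets were thus largely separate between any 2 libraries, and overlap between both hairpins was no exception to this. The 2491 regions covered 12.8 Mb, and 7.39 Mb of it, or 57.6%, was also covered by sh4. Control and sh4 shared 5.71 Mb in the regions absent from sh1, and control and sh1 shared 7.09 Mb in the regions absent from sh4.

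The overlap that defined a region was often partial. A median of 66.0% of a region's length was overlapped by sh4 (quartiles 39.2 and 95.2%), and 592 regions (23.8%) lay wholly inside sh4 regions. At the edge of the rule, 69 regions (2.77%) were included through 200 bp of shared sequence, which is 1 step of the grid on which the regions were called. On the other side of the edge, 646 regions overlapping sh4 were left out because they also overlapped a control region, 13 of them by 200 bp. Of the 2471 sh4 regions on the other side of the overlaps, 123 (4.98%) themselves overlapped a control region elsewhere along their length.

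Control regions were seldom far away. The median gap from a region to the nearest control region was 24.8 kb (quartiles 9.60 and 53.2 kb, largest 0.833 Mb), against 29.4 kb for regions found in sh1 alone. Of the 2491 regions, 363 (14.6%) lay within 5 kb of a control region, 60 within 1 kb, and 6 touched one. Of the regions found in sh1 alone, 12.6% lay within 5 kb. Windows of 1 Mb with no control region at all held 8 of the 2491 regions (0.321%). The regions called in both hairpins thus mostly lay in parts of chromosomes where the control also had H3K36me2 regions. A control list of 18309 regions makes this likely for any set, and the same share for the other sh1 regions is not given here.

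The regions were a few kilobases wide. Their width in sh1 was 4400 bp at the median (quartiles 3400 and 6200 bp, range 400 to 29000 bp), against 4200 bp for all sh1 regions and 4800 bp for regions shared by control and sh4 and absent from sh1. Regions over 10 kb numbered 127 (5.10%). A wide region is more likely to meet a region of another list, so width is not independent of the rule. In the same way, 9.35% of sh1 regions up to 2 kb were also in sh4 and not in control, against 16.3% of those over 8 kb.

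Enrichment was low in both hairpins. The fold of immunoprecipitate (IP) over background, a linear ratio from the authors' lists, had a median of 1.65 in sh1 (quartiles 1.52 and 1.84), and the overlapping sh4 regions had a median of 1.61 (1.48 and 1.78). All sh1 regions also had a median of 1.65, and regions of control and sh4 absent from sh1 had a median of 1.59 in control. The regions found in both hairpins were therefore enriched like the rest of the sh1 list. In sh1 the reads behind a region were 159 from the IP and 94 from the input at the median. Both folds exceeded 2 in 40 regions (1.61%). Across the 2491 regions the sh1 and sh4 folds had a Spearman rho of 0.170 and the widths one of 0.0451, as descriptions across regions of the same libraries. A region's fold or width in sh1 thus told little of its fold or width in sh4.

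**Figure D2:**
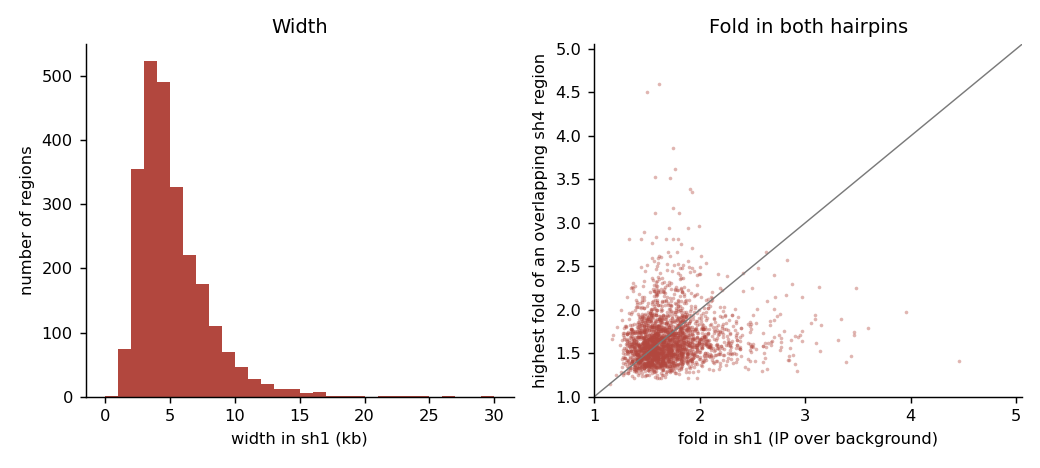
Left, number of regions found in both hairpins and not in control (y axis) by width in sh1 (x axis, kb). Right, fold of the highest overlapping sh4 region (y axis) against fold in sh1 (x axis), 1 point per region, with the line of equal fold. The median width is 4400 bp and the median folds are 1.65 in sh1 and 1.61 in sh4. One region with folds of 1191.2 and 972.7 lies beyond both axes.

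Absence from the control list does not give the control's enrichment there, because the list holds only regions that passed the peak caller's FDR limit. Among control regions over 4 and up to 8 kb wide the lowest fold was 1.30 and the 10th percentile 1.41, while the 1128 regions of that width in both hairpins had a median fold of 1.58 in sh1. A stretch with a control fold somewhat below these values would not have been listed. Input reads per kb were 22.7 in the regions in sh1 and 22.6 in their sh4 partners. Over the whole lists they were 23.4 in sh1, 21.6 in sh4 and 23.9 in control, lowest in sh4. The control's input reads in the regions themselves are not known.

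The widest region lay at chr19:27345801-27374800, 29000 bp, and was the only one on chromosome 19. Its fold was 1.15 in sh1 (1697 IP and 1457 input reads) and 1.15 in sh4 (1729 IP and 1484 input reads), and 92.4% of its length was shared. It lay 833400 bp from the nearest control region and 1830519 bp from the nearest protein-coding gene, UQCRFS1, a subunit of respiratory complex III. This region had the widest gap to the control list but also the lowest fold of all 2491. For its width, its sh1 input reads stood well above the 22.7 per kb of the regions as a whole. What raised the input there was not tested. The other 9 of the 10 widest spanned 19000 to 26400 bp with sh1 folds of 1.17 to 1.38, and 8.93 to 61.7% of their length was shared. One at chr13:94178201-94203000 lay in GPC6, a glypican of the cell surface, with folds of 1.38 in sh1 and 1.36 in sh4, and a control region began 1200 bp away. Another at chr5:168035401-168056800 lay in TENM2, a teneurin of neuronal contacts, with folds of 1.21 in sh1 and 1.25 in sh4, 4200 bp from a control region.

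By the smaller of the sh1 and sh4 folds, the first region lay at chr1:633801-634200, with folds of 1191.2 in sh1 and 972.7 in sh4. It overlapped MTATP6P1, a nuclear copy of a mitochondrial gene, and the control had a region with a fold of 755.7 only 2400 bp away. Reads from mitochondrial DNA and from such a copy cannot be told apart here. The second, at chr1:80905401-80907600, had a fold of 2.63 in sh1 (85 IP and 32 input reads) and 2.66 in sh4 (124 IP and 46 input reads), and lay 398531 bp from ADGRL2, a latrophilin receptor. A region of 1800 bp at chr6:93176201-93178000 had folds of 2.55 in sh1 and 2.48 in sh4 and lay 62019 bp from EPHA7, an ephrin receptor of axon guidance. Outside the mitochondrial copy, the strongest regions thus reached at most 2.63-fold in the weaker hairpin. Of the 10 with the highest smaller fold, 3 overlapped a protein-coding gene, namely TPST1 (a tyrosylprotein sulfotransferase), SPAG16 (a protein of the ciliary axoneme) and CENPW (a centromere protein).

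The regions were most numerous on large chromosomes. Chromosomes 2 to 6 held 1408 of the 2491 (56.5%), against 51.2% of all sh1 regions and 55.8% of the regions shared by control and sh4 and absent from sh1. Chromosome 4 held 309 of its 1857 sh1 regions (16.6%, 15.0 to 18.4%), and chromosome 16 held 13 of 192 (6.77%, 3.65 to 11.3%). Chromosome 19, rich in genes, held 1 of its 6 sh1 regions. Both hairpins shared more regions than control and sh4 did on 20 of 22 chromosomes, among them chromosome 7 with 147 against 93 and chromosome 18 with 69 against 42. Chromosome 10 held fewer, 55 against 68, and chromosome 19 held 1 of each kind. The excess over control and sh4 was therefore spread over nearly all chromosomes. Beside control and sh1 regions absent from sh4 it was less even. Those were as many as for both hairpins on chromosomes 14 (53 each) and 18 (69 each). They were more on chromosomes 10 (75 against 55), 15 (38 against 36), 16 (19 against 13) and 20 (22 against 20). On every other chromosome they were fewer, as on chromosome 4 with 218 against 309.

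**Figure D3:**
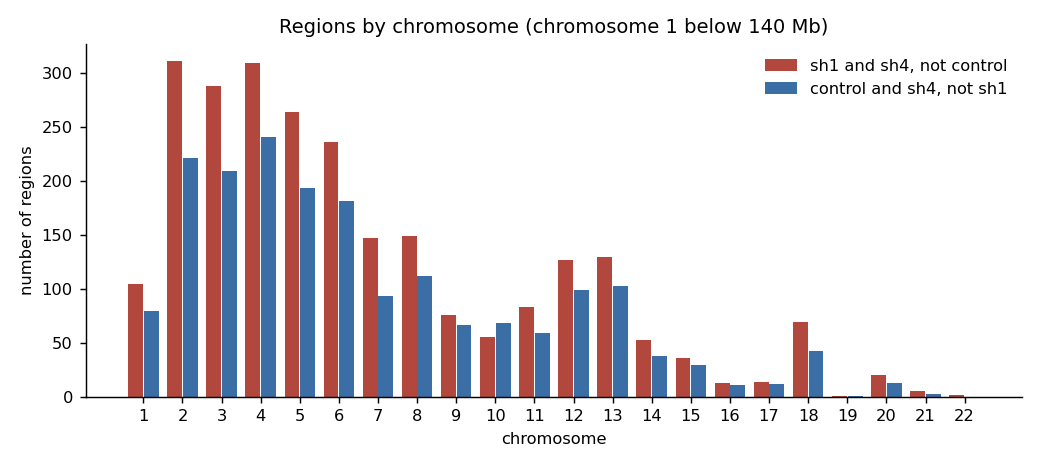
Number of regions (y axis) per chromosome (x axis) found in both hairpins and not in control, beside the number found in control and sh4 and not in sh1, with chromosome 1 counted below 140 Mb. Chromosomes 2 to 6 hold the most of both kinds, and the count for both hairpins is the higher on 20 of 22.

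Gene-poor DNA held most of the regions. Windows of 1 Mb with under 5 protein-coding genes held 69.4% (67.6 to 71.2%) of the regions, against 63.9% of all sh1 regions, 67.2% (66.5 to 67.9%) of all sh4 regions, 66.4% of control and sh4 regions absent from sh1, and 57.1% of all control regions. Windows with 10 or more genes held 5.14% (4.30 to 6.08%), against 8.19% of all sh1 regions, 7.26% of all sh4 regions, 7.32% of control and sh4 regions absent from sh1, and 12.7% of all control regions. The regions called in both hairpins thus lay further towards gene-poor DNA than the sh1 and control lists. Their interval for windows of under 5 genes overlapped that of the sh4 list. Regions found in all 3 lists, control included, had similar shares, 68.7% in windows of under 5 genes and 5.57% in windows of 10 or more. This position was thus not particular to regions absent from the control. Windows with 0 genes held 13.3% of the regions and 14.3% of all sh4 regions. The control list had the highest share in gene-rich windows. A window with more control regions leaves fewer sh1 regions without one, so gene density is not independent of the rule. That reasoning does not cover the regions found in all 3 lists, which overlapped control regions by definition. Within windows of under 5 genes, 14.9% of sh1 regions were also in sh4 and not in control, and 11.9% of control regions were also in sh4 and not in sh1. Within windows of 10 or more genes the same shares were 8.58% and 5.90%. Both shares were lower in gene-rich windows, so the pairs of libraries shared this pattern.

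Of the 1074 windows with at least 1 region, 460 held exactly 1 and 358 held 3 or more. The most in 1 window was 10, at chr13:105000001-106000000, whose protein-coding gene is DAOA, a regulator of D-amino acid oxidase. That window held 34 sh1, 24 sh4 and 11 control regions. Around SOX2, a transcription factor of neural progenitors, the windows chr3:181000001-182000000 and chr3:182000001-183000000 held 9 regions each, 18 in all, an example chosen after the values had been seen. Those 18 had folds of 1.34 to 2.61 in sh1 and 1.29 to 2.61 in sh4, and covered 97.4 kb. SOX2 itself was covered in none of the 3 libraries, and the nearest of the 18 lay 19.5 kb from it. Control regions were present in both windows, 19 in the first and 15 in the second.

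A protein-coding gene was overlapped by 958 of the 2491 regions (38.5%, 36.5 to 40.4%), against 43.2% (42.5 to 44.0%) of the other sh1 regions, 40.1% (39.4 to 40.8%) of all sh4 regions, 40.7% (38.4 to 42.9%) of control and sh4 regions absent from sh1, and 44.7% of all control regions. A long noncoding RNA gene was overlapped by 642 (25.8%), against 22.9% of the other sh1 regions, 22.5% of all sh4 regions, 486 of the 1872 control and sh4 regions absent from sh1 and 553 of the 2216 control and sh1 regions absent from sh4. Neither kind of gene was met by 1010 regions (40.5%), against 38.2% of the other sh1 regions and 41.5% of all sh4 regions. The regions of both hairpins thus lay more often outside protein-coding genes than the rest of the sh1 list. They did so about as often as all sh4 regions and the regions of the other pairs. Of the 646 regions found in all 3 lists, 226 overlapped a protein-coding gene, so a low share was not particular to regions absent from the control. Gene starts were rare throughout, in 0.803% of these regions (0.491 to 1.24%), 0.795% of the other sh1 regions and 1.31% of all control regions.

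The 20 regions with a start spanned 2000 to 9800 bp. At POC5 the region at chr5:75716801-75726600 had folds of 1.32 in sh1 (338 IP and 253 input reads) and 1.33 in sh4 (344 IP and 256 input reads), shared 81.6% of its length and lay 75400 bp from the nearest control region. At ENPP1 the region at chr6:131807401-131815400 had folds of 1.38 in sh1 and 1.73 in sh4 and lay 12400 bp from a control region. The starts of POC5 and ENPP1 themselves lay outside the sh4 regions. Among the 10 widest of the 20, sh1 folds thus stayed between 1.32 and 1.72. ITGAV, an integrin subunit, had folds of 1.42 in sh1 and 1.68 in sh4, with the start inside both hairpins' regions. NMBR, the neuromedin B receptor, and VTA1, an endosomal sorting protein, shared a region with folds of 1.53 in sh1 and 1.66 in sh4, and a KDM2A peak at chr6:142147032-142147217 covered the NMBR start, with a deposited FDR of 0.307. QTMAN, a glycosyltransferase that modifies transfer RNA, and CCDC150 had internal starts in regions of which 11.1% and 10.7% was shared with sh4.

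Of the 18000 protein-coding genes on the chromosomes used, 644 (3.58%) were overlapped by at least 1 region. For control and sh4 regions absent from sh1 the number was 593 (3.29%), and for control and sh1 regions absent from sh4 it was 634. These 644 genes had a median length of 245.4 kb, against 25.1 kb for all protein-coding genes, and long genes were met more often. Genes of 500 kb or more held a region in 131 of 293 cases (44.7%), and genes under 50 kb in 49 of 12255 (0.400%). Per 100 kb of gene, the regions covered 674.6 bp in genes of 500 kb or more and 103.2 bp in genes under 50 kb, against 509.1 bp and 112.0 bp for control and sh4 regions absent from sh1. Other control regions lay in 528 of the 644 genes, and 116 (18.0%) had no control coverage at all. The most regions, 9 each, lay in FHIT, a diadenosine triphosphate hydrolase, and PARD3B, a cell polarity protein, both picked out by this count. FHIT had 13.2% of its length in sh1, 12.1% in sh4 and 4.72% in control regions, and PARD3B 20.1% in sh1, 15.8% in sh4 and 10.1% in control regions.

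Among genes of at least 5 kb, 10 were ranked first by the percent of their length inside the regions, all of them by 1 region each. PPP1R36, a regulatory subunit of protein phosphatase 1, came first with 50.7%. It had 62.4% of its length in sh1, 3.50% in sh4 and 11.2% in control regions, so the sh4 library covered less of this gene than the control did. GBP4, an interferon-induced GTPase, had 38.2% in sh1, 14.6% in sh4 and 0% in control regions. MMP3, a matrix metalloproteinase, had 35.9% in sh1, 35.9% in sh4 and 0% in control regions. MMP20, the metalloproteinase of tooth enamel, lies on the same arm of chromosome 11 and had 22.7% in sh1, 30.9% in sh4 and 0% in control regions. For MMP3, SLC35G1 and MMP20 the sh4 library covered at least as much of the gene as sh1 did, while for the other 7 it covered less. SLC35G1, a solute carrier, had 32.8% in sh1, 40.4% in sh4 and 0% in control regions. BEST3, a bestrophin chloride channel, had 34.1% in sh1, 15.4% in sh4 and 0% in control regions. The remaining 4, CFAP418, C11orf97, MUC22 and ITM2B, had 19.9 to 34.6% in sh1, 9.69 to 20.0% in sh4 and 0% in control regions. Coverage of 0% in control follows from the choice of regions wherever no other control region fell in the gene.

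**Figure D4:**
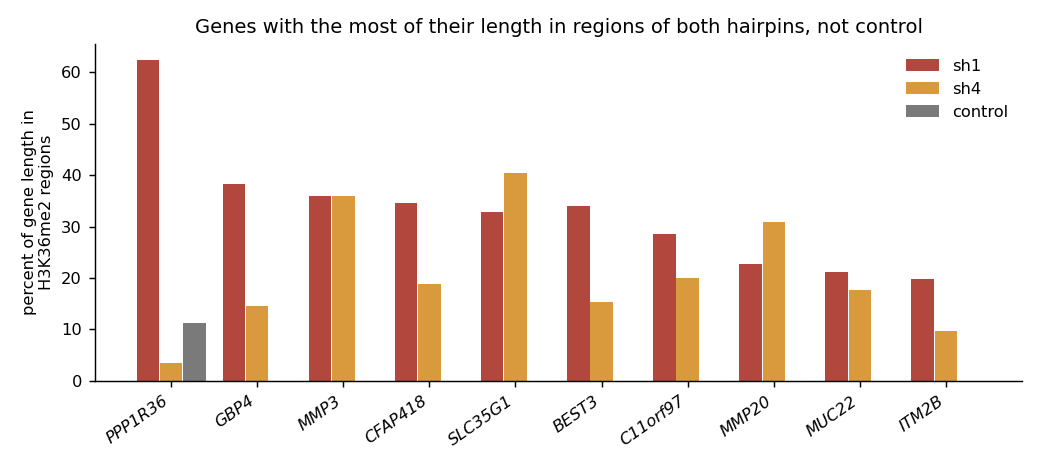
Percent of gene length inside H3K36me2 regions (y axis) in sh1, sh4 and control for the 10 protein-coding genes of at least 5 kb with the most of their length in regions of both hairpins and not control (x axis). PPP1R36 stands at 62.4% in sh1, 3.50% in sh4 and 11.2% in control, and the other 9 have 0% in control.

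The study's own themes were looked up in gene lists. In the MAPK list, of kinases and small GTPases that carry growth signals, 7 of 58 genes (12.1%) held a region, against 3.58% of all protein-coding genes and 5.00% of those of 50 to 200 kb. The exact binomial interval of the list's share, 4.99 to 23.3%, includes 5.00%, at its lower end. The median length of the list was 80.6 kb. A control and sh4 region absent from sh1 lay in 7 of the 58, and a control and sh1 region absent from sh4 in 1. MAP3K20, a stress-activated kinase, had 11.8% of its length in sh1, 8.73% in sh4 and 5.40% in control regions. MAP3K4 had 3.34% in sh1, 8.92% in sh4 and 12.6% in control regions, so the control covered the most of it. The MAPK genes thus had the same count for the hairpin pair as for control and sh4, and a lower one for control and sh1, differences that were not tested. Of the growth factors and receptors, 6 of 31 held a region, 7 held a control and sh4 region absent from sh1, and 2 held a control and sh1 region absent from sh4. ERBB4, a neuregulin receptor, had 3 regions, with 3.87% in sh1, 6.17% in sh4 and 6.71% in control regions.

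Lists of long neuronal genes held regions more often than the 3.58% of all protein-coding genes, as long genes did in general. Of the axon guidance and synapse genes, with a median length of 429.5 kb, 14 of 37 (37.8%) held a region, against 24.4% of all protein-coding genes of 200 to 500 kb. The exact binomial interval of this share, 22.5 to 55.2%, includes 24.4%. Per 100 kb of gene, the regions covered 531.6 bp in this list and 605.0 bp in genes of 200 to 500 kb. A control and sh4 region absent from sh1 lay in 16 of them and a control and sh1 region absent from sh4 in 11. UNC5C, a netrin receptor, held 3 regions, with 17.8% of its length in sh1, 13.4% in sh4 and 8.44% in control regions. GRIN2B, an NMDA receptor subunit, had 13.8% in sh1, 6.98% in sh4 and 11.8% in control regions. Of the cadherins and cell adhesion genes, with a median length of 762.3 kb, 9 of 36 held a region, 7 a control and sh4 region absent from sh1 and 12 a control and sh1 region absent from sh4. Among all genes of 500 kb or more, 44.7% held a region. In both lists the count for the hairpin pair lay between those for the pairs with control.

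The developmental and chromatin lists, with shorter genes than these neuronal lists, are read against the 3.58% of all protein-coding genes. By length, genes under 50 kb held a region in 0.400% of cases and genes of 50 to 200 kb in 5.00%. Of 18 neural progenitor markers, DACH1, a transcriptional cofactor, alone held a region, with 2.56% of its length in sh1, 2.80% in sh4 and 0.652% in control regions. Of 33 genes of neurogenesis and neuron differentiation, EBF1 alone held regions, with 15.7% in sh1, 11.3% in sh4 and 8.96% in control regions, and 2 genes held a control and sh4 region. Of 30 Wnt, Notch and Hedgehog genes, LEF1, a nuclear effector of Wnt signalling, alone held one, with 22.4% in sh1, 7.74% in sh4 and 15.0% in control regions. The developmental lists thus held 1 gene each, shares of 5.56%, 3.03% and 3.33%. These are near that of all genes but above that of genes under 50 kb, where their median lengths of 16.1, 12.2 and 49.6 kb fall. Each share rests on 1 gene that was itself long, with 429.2 kb in DACH1, 404.0 kb in EBF1 and 121.4 kb in LEF1. Of 22 H3K36 enzymes and readers, ZMYND11, a reader of methylated H3K36, held one (4.55% of the list), with 3.69% in sh1, 3.85% in sh4 and 0% in control regions. The Polycomb list had 3 of 27 (11.1%, 2.35 to 29.2%), namely JARID2, PCGF5 and YAF2, and JARID2 had 2.32% in sh1, 1.67% in sh4 and 13.9% in control regions. The matrix metalloproteinases had 3 of 22 (13.6%, 2.91 to 34.9%), namely MMP3, MMP16 and MMP20. Both shares stand above 3.58%, on 3 genes each, and both exact binomial intervals include it. Median lengths were 44.8 kb in the Polycomb list and 12.9 kb in the metalloproteinase list, and both intervals lie above 0.400%. The genes met include longer ones, such as JARID2 of 276.0 kb and MMP16 of 295.5 kb. A control and sh4 region absent from sh1 lay in 2 genes of each list. None of 25 blood, liver and muscle genes and none of 330 olfactory receptor genes held a region. At a count of 0 this allows a share of up to 13.7% of the first list and 1.11% of the second (exact binomial). Their median lengths were 11.8 and 1.72 kb, and both limits lie above the 0.400% of genes under 50 kb. The olfactory receptors held no region of the other pairs either, and 1 gene of the first list held a control and sh4 region.

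KDM2A was mapped in control cells only, by a library that the choice of regions did not use. The deposited KDM2A list is broad, with 504724 peaks, of which 15820 (3.13%) had a deposited FDR under 0.05. Peak midpoints inside the regions numbered 2280, or 17.8 per 100 kb (exact Poisson 95% interval 17.1 to 18.5). Other sh1 regions had 19.5 per 100 kb (19.2 to 19.8), control and sh4 regions absent from sh1 had 18.7 (17.9 to 19.6), control and sh1 regions absent from sh4 had 19.2, and all control regions 20.4. All sh4 regions, the other list the regions belong to, had fewer, 16.9 (16.7 to 17.2). The regions of both hairpins thus lay between the sh4 list and the sh1 list, with 0.913 times the density of the other sh1 regions (0.873 to 0.954) and 0.949 times that of control and sh4 regions absent from sh1 (0.893 to 1.01). The first interval lies below 1 and the second includes it.

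Within classes of gene density the ratio to the other sh1 regions was 0.925 (0.877 to 0.976) in windows of under 5 genes, 0.899 (0.824 to 0.980) in windows of 5 to 9 genes, and 0.848 (0.698 to 1.03) in windows of 10 or more. The last interval includes 1, on 109 peaks. At least 1 KDM2A peak lay in 1407 regions (56.5%, 54.5 to 58.4%), against 58.1% of the other sh1 regions, 54.2% of all sh4 regions and 59.8% of control and sh4 regions absent from sh1. Within 5 kb of a region there was a peak in 88.0% of cases, against 88.3% for the other sh1 regions and 88.6% for control and sh4 regions absent from sh1. A KDM2A peak nearby was therefore about as frequent in each of these sets.

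Around the regions, KDM2A peaks numbered 12.1 per 100 kb (11.4 to 12.8) in the first 2 kb outside, 14.0 (13.3 to 14.8) from 2 to 4 kb, and 14.1 (13.9 to 14.3) from 20 to 50 kb. All sh1 regions had 12.2, 14.8 and 14.9 at the same distances. Peaks were thus denser inside the regions than outside, with a dip just beyond the edge, and all sh1 regions showed the same pattern. Both assays count reads along the genome, and the part of read coverage in this profile was not tested.

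**Figure D5:**
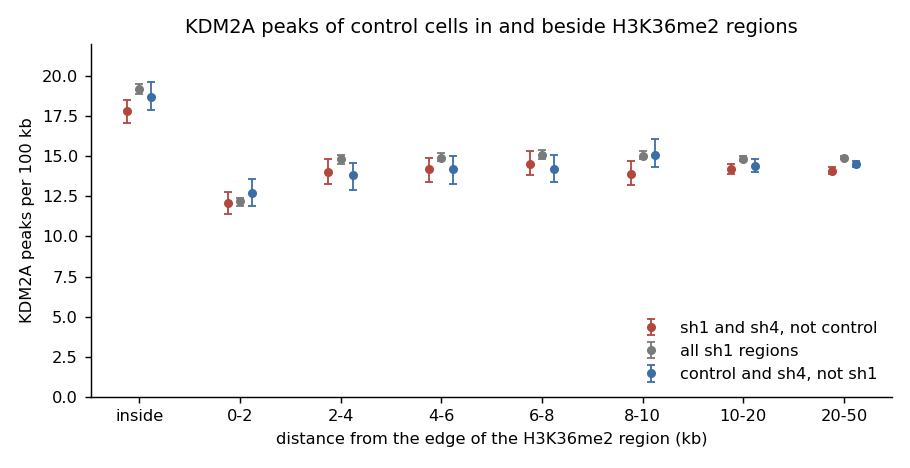
KDM2A peak midpoints of control cells per 100 kb (y axis) inside H3K36me2 regions and by distance from their edge in kb (x axis), with exact Poisson 95% intervals, for regions of both hairpins and not control, all sh1 regions, and regions of control and sh4 and not sh1. The density is highest inside (17.8, 19.2 and 18.7) and lowest in the first 2 kb outside (12.1, 12.2 and 12.7).

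The KDM2A peaks inside the regions had a fold of 2.33 and a pileup of 8 fragments at the median, as did the list as a whole. A deposited FDR under 0.05 was reached by 52 peaks, in 50 of the 2491 regions (2.01%), against 2.23% of the other sh1 regions. The lowest FDR belonged to a peak at chr2:172365103-172365527, with a fold of 5.18, a pileup of 19 and an FDR of 2.18e-06. It lay in a region of 14200 bp at chr2:172355801-172370000 with H3K36me2 folds of 1.32 in sh1 and 1.27 in sh4, 57335 bp from ITGA6, an integrin subunit. The next, with a fold of 4.93 and an FDR of 7.61e-05, lay at the edge of a region at chr4:89172601-89178000 with H3K36me2 folds of 1.65 in sh1 and 1.45 in sh4. None of the 5 regions with the lowest KDM2A FDR overlapped a protein-coding gene. Strong KDM2A peaks were thus about as rare in the regions as in the other sh1 regions. Most of the 2491 regions lay outside protein-coding genes, since 38.5% overlapped one, so the position of these 5 is little apart from the rest.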

How the data were processed

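Chromatin immunoprecipitation libraries of H3K36me2 (sh1, sh4 and control cells) and of KDM2A (control cells) were used, 1 library per group. Per the submitters' processing notes the builds were hg38 or GRCh38 and the tools included SICER, MACS2 and Bowtie 1.1.2, without roles. The deposited H3K36me2 lists give, per the file headers, a fold enrichment (a linear ratio of IP to background), a p-value, an FDR and a score for each region. The deposited KDM2A list gives, per the file headers, a fold, a p-value, an FDR and a pileup, a signal that counts stacked fragments. The scores the authors deposited were not used.

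H3K36me2 starts were read as counted from 0, on a 200 bp grid, and printed counted from 1. A Poisson model of the fold and p-value gave the IP and input reads behind each region, and 100% of the input counts lay within 0.01 of a whole number. Library totals are not known. KDM2A peaks were placed by midpoint. Genes and promoters came from RefSeq tables of GRCh38.p14, with promoters joined to genes by gene identifier. The counts of CG are descriptions only. Exact 95% intervals were computed with scipy 1.17.1 in Python 3.11.15 (pandas 2.3.3, numpy 2.4.6, matplotlib 3.10.9). Scripts were tested on simulated data.

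The regions and the gene lists were chosen with earlier results of these data known. Named regions were the 10 widest, the 10 with the highest smaller fold of sh1 and sh4, the 5 with the lowest KDM2A FDR and the 10 widest with a gene start, of which examples are given. Named genes were the 10 of at least 5 kb with the largest percent of length in the regions and up to 4 per list. Alternatives changed the overlap, fold, width and KDM2A limits, the list counted, the margin and the part of chromosome 1 left out.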

Additional observations from a re-analysis of the deposited data

Results flagged for a closer look

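Chromosome 1 from 140 Mb on was left out of all counts above. Of its 655 sh1 regions, 206 (31.5%, exact binomial 95% interval 27.9 to 35.2%) overlapped sh4 and no control region, against 13.7% on the chromosomes used. Control and sh4 shared 150 of its 708 control regions absent from sh1 (21.2%, 18.2 to 24.4%), against 10.2% on the chromosomes used. The sh4 library listed 1840 regions in this part, against 655 in sh1 and 708 in control. Input reads also differed there in sh4. The sh4 regions of this part held 29.6 input reads per kb, against 21.6 in sh4 regions on the chromosomes used. The same pair of values was 23.6 and 23.4 in sh1 and 24.4 and 23.9 in control. Input counts the DNA itself, so a difference in DNA copy number of the sh4 culture would change both shares, and its part in them was not tested.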

How the results depend on the processing

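Of 45 values under alternatives, 29 stayed within the limits of an unchanged result, 16 moved and none reversed, and both hairpins shared more regions than control and sh4 in every setting, by 1.18 to 1.71 times. Keeping only regions at or above the control's median fold of 1.59 in each list left 11128 of 18210 sh1 but 9174 of 18309 control regions. Of the 11128 sh1 regions, 943 were in both hairpins and not control. Of the 9174 control regions, 550 were in control and sh4 and not sh1, and 559 in control and sh1 and not sh4. The ratio of 1.71 thus compares counts from lists that this limit cut unequally. The 943 regions had a median width of 3600 bp and 16.4 KDM2A peaks per 100 kb. Keeping only regions of at least 4 kb gave 1231, 1044 and 1190 regions, a ratio of 1.18 and a median width of 5800 bp. Requiring at least 50% of a region to be overlapped gave 1465 regions in control and sh1 and not sh4 and a median width of 4200 bp for both hairpins. Counting on the sh4 list gave a median width of 5000 bp. With KDM2A peaks of FDR under 0.05 the density was 0.405 per 100 kb, and with 5 kb added to each side it was 14.8. Fewer regions or peaks enter the settings with limits by construction, and the cause of the change in ratio was not tested. No paired analysis was possible because each group holds 1 library, and for the same reason no replicate could be left out. Depth limits the absence calls, since a control stretch under the list's FDR limit has no value.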

Other observations

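Chromosome X, outside the choice of regions, held 635 sh1 regions, of which 47 (7.40%, exact binomial 95% interval 5.49 to 9.72%) overlapped sh4 and no control region. Control and sh4 shared 52 of its 674 control regions absent from sh1 (7.72%, 5.82 to 9.99%).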
